A study of Mus musculus with 22 samples.

Results

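The Iroquois genes encode homeodomain transcription factors of the TALE class and lie in 2 clusters of 3 genes in the mouse, IrxA on chromosome 13 (Irx1, Irx2 and Irx4) and IrxB on chromosome 8 (Irx3, Irx5 and Irx6). H3K27me3, the histone mark of Polycomb repressive complex 2 (PRC2), was measured there by CUT&RUN in retinas with and without Jarid2, an accessory subunit of that complex. The deposited table of 19034 peaks (mouse build mm10) held 35 Iroquois peaks: 14 that its annotation names for one of the 6 genes, and 21 others from a largely intergenic stretch of chromosome 13 around Irx1, whose first peak starts at 71006540 and whose last ends at 72375140. Irx1 had 7 named peaks, Irx2 and Irx5 had 2 each, and Irx3, Irx4 and Irx6 had 1 each, so IrxA held 31 of the 35 peaks and IrxB 4. The choice used position and annotation, not measured values, but that stretch of chromosome 13 was picked with earlier results of these data known, and no comparable stretch was added around IrxB.

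In all animals tamoxifen (75 µg per g) was given to the pregnant female at E10.5, the background was C57BL/6, and both retinas of an animal were pooled at embryonic day 18.5. The 5 cKO animals were Jarid2 fl/fl; Rx-cre, with a tamoxifen-inducible Cre (Rax-CreERT2 in the protocol) driven in retinal progenitors. Of the 5 controls, control 1 was Jarid2 fl/+; Rx-cre, controls 2, 4 and 5 were Jarid2 fl/+, and control 3 was Jarid2 fl/fl, so only control 1 carried Cre and most controls had a single floxed allele. The treatment protocol calls the controls Jarid2 fl/fl, whereas these genotypes are those of the single samples. In batch 1 were cKO 1 and 2 and control 1 and 2 from a single litter, with cKO 1 and control 2 female. Batch 2 comprised the 3 other animals of each genotype, male littermates with 2 technical duplicates each, which were summed. The retinas were not sorted, so a smaller share of marked cells and less mark per cell cannot be told apart. No value here measures the deletion of Jarid2.

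PRC2 places methyl groups on lysine 27 of histone H3 at developmental genes that a cell keeps silent, mostly where promoters are rich in unmethylated CG dinucleotides. Marked regions over homeobox genes are typically broad, covering the gene and its surroundings. In the mouse retina Irx5 and Irx6 are known for roles in cone bipolar cells, and Irx4 is known in chick for a role in the guidance of ganglion cell axons.

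The promoters of 3 of the 6 genes are shown because the broad H3K27me3 peaks described next lie across them. They come from RefSeq (GRCm38.p6) and span 300 bases around a start site that its promoter table lists for the gene, with each CG dinucleotide in capitals. Irx2 is at chr13:72628570-72628869 on the plus strand, Irx4 at chr13:73260247-73260546 on the plus strand, and Irx3 at chr8:91801605-91801904 on the minus strand. Irx1, Irx5 and Irx6 were not matched.
Irx2 promoter: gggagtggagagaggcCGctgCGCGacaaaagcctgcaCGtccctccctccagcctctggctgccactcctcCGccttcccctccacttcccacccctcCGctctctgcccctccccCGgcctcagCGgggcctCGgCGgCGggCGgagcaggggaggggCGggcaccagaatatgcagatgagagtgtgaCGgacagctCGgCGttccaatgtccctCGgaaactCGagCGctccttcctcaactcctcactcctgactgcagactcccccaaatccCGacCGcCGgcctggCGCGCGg
Irx4 promoter: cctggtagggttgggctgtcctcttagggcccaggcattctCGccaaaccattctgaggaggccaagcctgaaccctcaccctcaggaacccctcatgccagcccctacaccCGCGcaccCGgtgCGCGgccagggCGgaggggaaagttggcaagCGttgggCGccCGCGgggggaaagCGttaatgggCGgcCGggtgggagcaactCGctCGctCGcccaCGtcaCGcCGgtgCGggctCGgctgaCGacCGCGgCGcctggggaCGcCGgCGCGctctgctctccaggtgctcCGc
Irx3 promoter: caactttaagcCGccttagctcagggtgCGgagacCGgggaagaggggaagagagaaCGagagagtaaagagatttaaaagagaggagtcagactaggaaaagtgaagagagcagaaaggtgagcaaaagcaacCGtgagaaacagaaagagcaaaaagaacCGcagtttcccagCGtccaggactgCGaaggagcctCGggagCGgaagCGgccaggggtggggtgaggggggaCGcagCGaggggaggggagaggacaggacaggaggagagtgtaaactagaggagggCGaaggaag
The Irx4 promoter held 31 CG dinucleotides, a number reached by 10.6% of the 32851 promoters in the RefSeq table. Irx2 held 25, reached by 18.4%, and Irx3 held 14, reached by 36.3%. The median promoter held 7, and 94.6% held at least 1. CG reads the same on both strands. The Irx2 and Irx4 sequences lie inside the RefSeq gene bodies, which begin at 72624430 and 73259589.

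Each Iroquois gene lay under a broad peak in retina of both genotypes. The peak over Irx4 was 39.2 kb wide, that over Irx2 30961 bp and that over Irx1 29.0 kb, and they ranked 92, 158 and 189 by width among the 19034 peaks, whose median width was 2791 bp. In IrxB the peaks over Irx3 and Irx6 were 16.3 and 13.7 kb wide. The peak over the Irx5 gene body (chromosome 8, 92350900 to 92370920, 20021 bp) carries in the deposited annotation the name of Crnde, a neighbouring gene for a long noncoding RNA. It is therefore not among the 35 peaks, and its values are given beside theirs. The 2 peaks named Irx5 are small ones of 67 and 50 reads over all animals, 13.5 and 15.5 kb beyond the gene body.

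Per kb of peak, Irx2 had the highest level of the mark, 28.7 ± 2.14 TMM-scaled CPM per kb in cKO and 28.8 ± 4.51 in control animals (SD, n = 5 each). TMM scaling sets the animals to a common level after trimming the peaks with the most extreme ratios between animals. Values are thus relative to the bulk of peaks, and a change shared by most peaks would not be seen. CPM are read counts scaled to the size of each library. Irx3 followed with 26.9 ± 3.00 in cKO and 26 ± 3.83 in control, Irx4 with 25.0 ± 1.45 and 25.3 ± 2.89, and Irx1 with 23.8 ± 1.42 and 24.2 ± 3.32. Irx5 had 15.8 ± 5.11 in cKO and 13.6 ± 5.53 in control, and Irx6 had 15.1 ± 2.87 and 13.8 ± 2.46. These neighbours in the order lay within each other's SD except Irx1 and Irx5, and all 10 animals had more mark per kb over Irx2 than over Irx3, and over Irx1 than over Irx5. Irx3 exceeded Irx4 in 7 of 10 animals, Irx4 exceeded Irx1 in 9, and Irx5 exceeded Irx6 in 4. The 4 peaks over Irx1 to Irx4 were above 97.5% of all peaks in level per kb at the least, and those over Irx5 and Irx6 above 90.7% and 90.5%.

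The first question was whether H3K27me3 over the genes themselves depended on Jarid2. At Irx1, Irx2, Irx4, Irx3 and Irx6, the peak over the gene did not differ between genotypes past the threshold, and 0 of these 5 peaks were called (edgeR quasi-likelihood test with batch as a term, Benjamini-Hochberg adjusted p under 0.05). Of all 16307 peaks tested, 8.84% were called, 7.38% as lower and 1.46% as higher in cKO. At an unadjusted p under 0.05 there was 1 of the 5, Irx6, and DESeq2 called 0.

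Irx1 (chromosome 13, 71947480 to 71976510) had 692, 711, 729, 700 and 622 CPM in cKO 1 to 5, against 816, 742, 740, 657 and 564 CPM in control 1 to 5. The control animals spanned a wider range than the cKO animals and enclosed it. In log2 the fold change was -0.02, with an SE of 0.08 and a 95% interval of -0.20 to 0.16 (edgeR adjusted p = 0.915). Irx2 (72615360 to 72646320) had 902, 979, 891, 883 and 793 CPM in cKO, against 1074, 938, 907, 849 and 691 CPM in control. Here too the groups overlapped throughout, with a log2 fold change of 0.00 ± 0.08 (edgeR adjusted p = 0.994, 95% interval -0.18 to 0.18). Irx4 (73245450 to 73284670) had 970, 1034, 1038, 946 and 907 CPM in cKO, against 1141, 1052, 985, 933 and 845 CPM in control. Its log2 fold change was -0.01 ± 0.07 (edgeR adjusted p = 0.947, 95% interval -0.17 to 0.15). In batch 1 both cKO animals stood below both control animals at Irx1 and Irx4, and at Irx2 cKO 2 stood above control 2. The log2 fold changes of batch 1 were -0.15, -0.10 and -0.13 for Irx1, Irx2 and Irx4, and those of batch 2 were 0.05, 0.06 and 0.05.

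Irx3 (chromosome 8, 91793800 to 91810080) had 447, 508, 436, 432 and 370 CPM in cKO 1 to 5, against 505, 457, 423, 385 and 344 CPM in control 1 to 5. The groups overlapped, and the log2 fold change was 0.06 ± 0.07 (edgeR adjusted p = 0.716, 95% interval -0.11 to 0.23). Irx6 (92668820 to 92682480) had 245, 252, 176, 186 and 172 CPM in cKO, against 227, 221, 170, 168 and 154 CPM in control. Within each batch every cKO animal was above every control animal, as at 3.94% of all tested peaks. The difference did not pass (log2 fold change 0.13 ± 0.06, edgeR adjusted p = 0.211, unadjusted p = 0.0419, 95% interval -0.01 to 0.27). Scaled by the total count instead of TMM, where the median log2 fold change of all peaks was 0.07 instead of 0.02, the Irx6 peak was called (edgeR adjusted p = 0.0251).

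Of the 6 gene body peaks, the one over Irx5 passed the threshold. It had 428, 430, 246, 239 and 243 CPM in cKO 1 to 5, against 393, 391, 202, 206 and 168 CPM in control 1 to 5. Within each batch every cKO animal was above every control animal. It rose in cKO by a log2 fold change of 0.25 ± 0.07 (edgeR adjusted p = 0.0208), 0.13 in batch 1 and 0.32 in batch 2. The call was lost without cKO 3 (adjusted p = 0.0516), cKO 4 (0.0568) or cKO 5 (0.0657), without a batch term (0.704), in batch 1 alone (0.515) and with the first technical duplicate only (0.0790). The peak overlaps Crnde as well as Irx5, so its reads cannot be assigned to either gene.

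**Figure D1:**
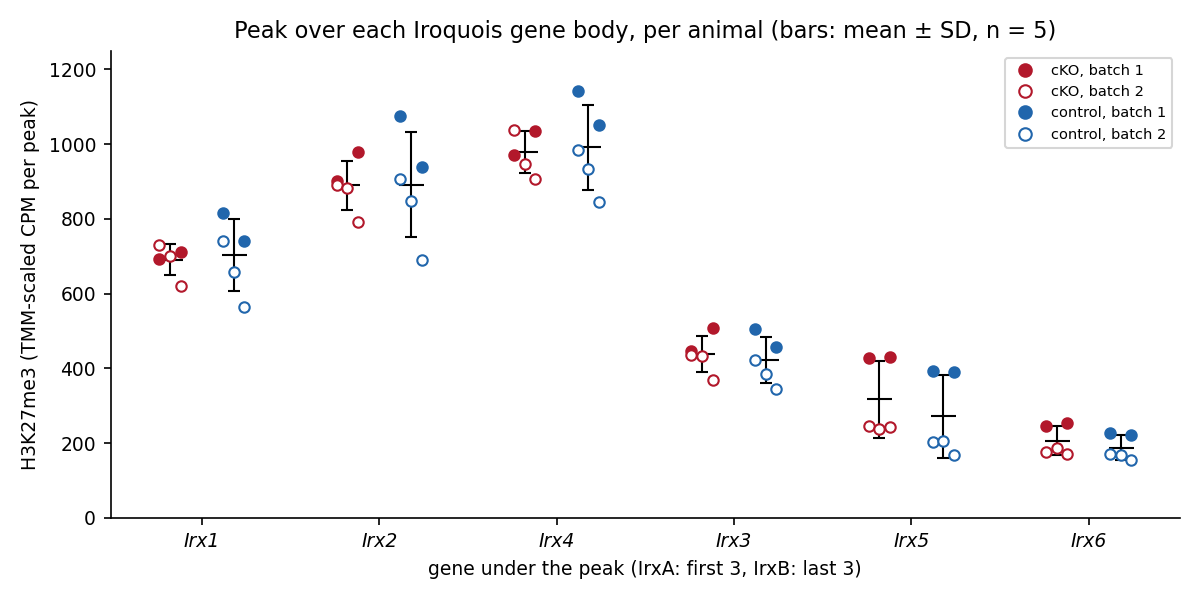
H3K27me3 in TMM-scaled CPM (y axis) at the peak over each Iroquois gene body (x axis), with cKO left of control for each gene, filled points for batch 1, open points for batch 2, and bars for mean ± SD of 5 animals. The groups overlap at Irx1, Irx2, Irx4 and Irx3, while at Irx5 and Irx6 cKO animals stand above control animals of the same batch and batch 1 stands above batch 2.

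The batches differed at IrxB by more than the genotypes did. The Irx5 peak averaged 217 CPM in batch 2 and 411 CPM in batch 1 (log2 difference -0.92, edgeR adjusted p = 3.5e-08), Irx6 171 and 237 CPM (-0.47, adjusted p = 1.93e-05) and Irx3 398 and 479 CPM (-0.27, adjusted p = 0.0197). Of all tested peaks 6.19% were lower and 6.1% higher in batch 2. The peaks over Irx1, Irx2 and Irx4 had -0.15, -0.22 and -0.15 in the same test and did not pass (edgeR adjusted p = 0.276, 0.0720 and 0.178). Away from the genes, the 8 lower peaks of chromosome 13 described below were all higher in batch 2, by 0.06 to 0.70. This passed at 71049350 to 71052140 (0.70, edgeR adjusted p = 0.0127), 62.9 kb from Irx1 (0.36, 0.0425) and at the peak assigned to Gm47836 (0.26, 0.0171). At the Irx5 peak the batch 1 males, cKO 2 and control 1, had 430 and 393 CPM, close to the 428 and 391 CPM of the batch 1 females, cKO 1 and control 2, and above all males of batch 2. The batches also differ in litter, and only batch 1 held females. Litter and processing cannot be told apart, and the part of sex in the batch differences was not tested. No Iroquois peak passed the test of a genotype difference that depends on batch (the lowest edgeR adjusted p was 0.903, at the peak 95 kb from Irx1; 0.0123% of all peaks passed), which does not show that the batches responded alike.

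Away from the genes, H3K27me3 was lower in cKO at several intergenic peaks around Irx1. Of the 27 peaks of the chromosome 13 interval other than the one over Irx1, 22 had enough reads to be tested, and 8 of these fell, while 0 rose. Over all Iroquois peaks the count was thus 8 lower and 0 higher of 28 tested, beside 7.38% and 1.46% of all peaks. Scaled by the total count it was 7 lower and 1 higher, the peak over Irx6. As the interval was chosen with results known, this share describes it and is not independent evidence. The median log2 fold change of the 22 was -0.31, against 0.02 over all tested peaks, with 19 negative and 3 positive. Within each batch the groups did not overlap, with cKO lower, at 5 of the 22, beside 7.59% of all tested peaks. All 5 were among the 8 called peaks, where the call itself favours such a separation.

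The peak with the steepest of the well-measured decreases lay 62.9 kb from Irx1 (chromosome 13, 72026640 to 72031800, 5.16 kb wide, intergenic and named Irx1 in the annotation). It held 26.6, 34.1, 35.8, 37.4 and 37.6 CPM in cKO 1 to 5, against 37.3, 60.4, 64.4, 64.3 and 64.3 CPM in control 1 to 5. Control 1 lay among the cKO animals and the other 4 controls lay well above them. The means were 34.3 ± 4.52 CPM in cKO and 58.2 ± 11.8 CPM in control (SD, n = 5 each), 1.69-fold lower in cKO, with a log2 fold change of -0.75 ± 0.11 (edgeR adjusted p = 8.64e-05). It was -0.67 in batch 1 and -0.81 in batch 2. The other 4 tested peaks that the annotation names for Irx1 outside its gene body did not pass, with log2 fold changes of -0.12, -0.01, 0.19 and -0.05 at 14.4, 95, 102 and 153 kb from the gene.

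On the other side of Irx1, 391 kb from it, a peak annotated as intronic and assigned to the processed pseudogene Gm47811 (71548200 to 71566970, 18.8 kb) held 139, 129, 158, 152 and 164 CPM in cKO, against 153, 233, 194, 225 and 217 CPM in control. Within each batch all cKO animals were below all controls, and control 1 was again the lowest control. The peak fell by 0.46 ± 0.09 on the log2 scale (edgeR adjusted p = 0.00116).

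A pair of broad peaks lay between Irx1 and Irx2. The first (72286350 to 72310090, 23.7 kb, intergenic, 314 kb from Irx2) held 379, 389, 417, 444 and 387 CPM in cKO, against 478, 515, 545, 499 and 451 CPM in control. All cKO animals were below all controls, also across batches. It fell by 0.30 ± 0.07 on the log2 scale (edgeR adjusted p = 0.00401). The second (72341900 to 72375140, 33.2 kb, annotated as the promoter of Gm47836, 249 kb from Irx2) held 203, 202, 236, 243 and 246 CPM in cKO, against 226, 299, 311, 316 and 320 CPM in control. Within each batch the groups did not overlap, with a log2 fold change of -0.38 ± 0.07 (edgeR adjusted p = 7.33e-04). These 4 peaks kept their calls in each of the 10 fits that left out 1 animal, with adjusted p up to 0.0182, whereas in batch 1 alone, with 2 animals per group, none passed. In batch 2 alone the first of the pair had an adjusted p of 0.0594, and without a batch term the second had 0.0562.

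Of the other 4 lower peaks, 3 lay close together near the far end of the interval, assigned to Gm38191 at 882 to 906 kb from Irx1. The one at 71049350 to 71052140 held 5.86, 10.52, 11.3, 16.0 and 13.6 CPM in cKO, against 9.96, 17.0, 22.8, 20 and 20.4 CPM in control (log2 fold change -0.64 ± 0.16, edgeR adjusted p = 0.0138). The one at 71054890 to 71056440 held 4.26, 3.51, 8.44, 4.01 and 4.23 CPM in cKO, against 5.48, 9.44, 10.1, 14.9 and 8.15 CPM in control (-0.95 ± 0.25, edgeR adjusted p = 0.0156), from 164 reads in all. In both, single animals of the groups overlapped within a batch. The third, annotated as a promoter (71072880 to 71075920), held 20.3, 15.0, 22.9, 22.3 and 19.3 CPM in cKO, against 20.4, 30.8, 26.8, 30.6 and 31.2 CPM in control, with no overlap within a batch (-0.47 ± 0.12, edgeR adjusted p = 0.0185). The last of the 8, assigned to 1700112M02Rik (71454570 to 71461900, 496 kb from Irx1), held 46.4 ± 7.12 CPM in cKO and 60.6 ± 9.46 CPM in control (SD, n = 5 each; -0.39 ± 0.12, edgeR adjusted p = 0.0428). These 4 calls depended on single animals. The first was lost without cKO 3 (adjusted p = 0.0619), the second without cKO 4 (0.0651) or control 4 (0.0771), and the third without cKO 2 (0.0629), control 2 (0.0585) or control 4 (0.0532). The last was lost without cKO 2, 3 or 4 (0.0754, 0.149 and 0.0651) or control 2, 4 or 5 (0.0967, 0.155 and 0.0722). None of the 4 passed with DESeq2 (0.108 to 0.148), so that DESeq2 called 4 Iroquois peaks.

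**Figure D2:**
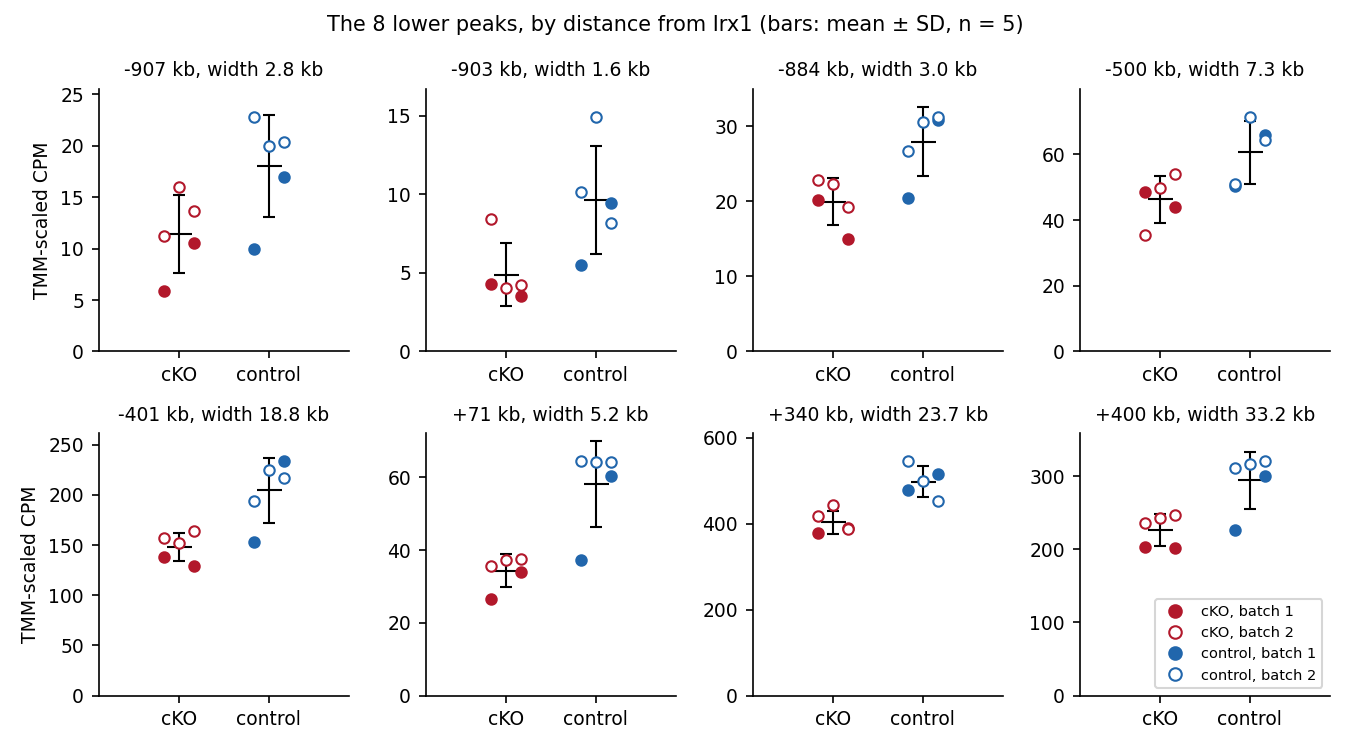
H3K27me3 in TMM-scaled CPM (y axes, each from 0) at the 8 lower peaks in cKO (left) and control (right), ordered by the distance of the peak centre from Irx1, with filled points for batch 1, open points for batch 2 and bars for mean ± SD of 5 animals. In 7 of the 8 panels control 1, the left of the 2 filled blue points, is the lowest control.

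Control 1, the control with Cre, was the lowest of the 5 controls at 7 of the 8 lower Iroquois peaks. The same held at 85.0% of the 1204 lower peaks of the whole table, against 23.6% of all tested peaks, so the pattern is not particular to the Iroquois interval. It also lay below control 2, its batch mate, at all 8 peaks, beside 94.4% of the 1204 lower peaks and 49.8% of all tested peaks. Control 1 took part in the calls that chose these peaks, so the shares are a description. Without control 1, the log2 fold change of the peak 62.9 kb from Irx1 was -0.85 (edgeR adjusted p = 4.31e-07). Then 9 Iroquois peaks were lower, as also without cKO 5, against 8 with all animals.

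The remaining 14 tested peaks of the interval had log2 fold changes of -0.49 to 0.19, and 11 of the 14 were negative. Their median level was 11.0 CPM, against 49.9 CPM among the 8 lower peaks, and the ranges overlapped, with means of 3.97 to 130 CPM and 7.26 to 450 CPM. The part of depth in the calls was not tested. The 7 Iroquois peaks not tested held 40 to 72 reads each over all animals, 5 in the interval and the 2 named Irx5. The single remaining peak, 13.8 kb beyond Irx2, had 0.21 ± 0.13 (edgeR adjusted p = 0.380). Of the Iroquois peaks annotated as distal intergenic, 5 of 19 tested fell, against 9.51% of all such peaks. Of those annotated as promoter, 2 of 8 fell, against 4.25%, and neither lies at an Iroquois gene.

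**Figure D3:**
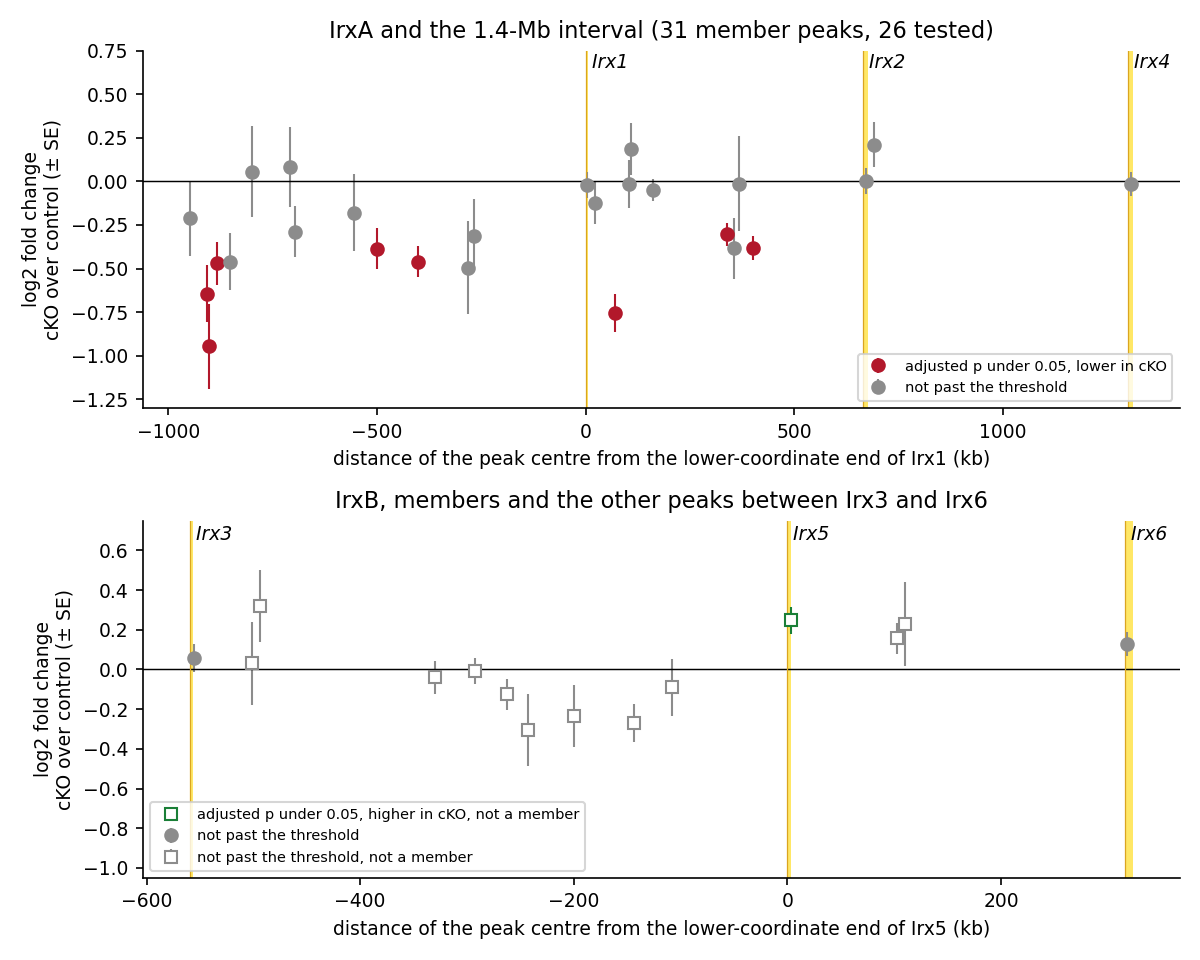
Log2 fold change of cKO over control (y axis, ± SE) of each tested peak against its distance in kb from Irx1 (upper) or Irx5 (lower), with gene bodies in yellow. Red points are lower in cKO, the green square is higher, grey ones did not pass, and open squares are IrxB peaks outside the 35. The red points lie between -0.95 and -0.30 and avoid the 3 gene bodies of IrxA. Between the interval and Irx4 only peaks named Irx2 or Irx4 are drawn, so the gap there does not show a lack of lower peaks.

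The chromosome 13 interval reaches far beyond Irx1 and ends before Irx2. Between its end and Irx4, only peaks named Irx2 or Irx4 were read. For IrxB the peaks between Irx3 and Irx6 (chromosome 8, 91793800 to 92682480) were read, a window chosen after the data were seen. It ends at the outer genes of the cluster, so the counts of both windows are not like for like. Of 18 peaks there 14 were tested, and 1 rose, the one over Irx5, while 0 fell (edgeR, adjusted p under 0.05; 3 had an unadjusted p under 0.05). These counts stand beside 1.46% higher and 7.38% lower of all tested peaks, from which a count of 0 lower among 14 is not set apart. Of the 14 tested, 7 had a negative and 7 a positive log2 fold change, with a median of 0.01 and a range of -0.30 to 0.32. The intergenic peak with the most reads, 255 kb from Irx3, held 207 ± 30.1 CPM in cKO and 208 ± 29.3 CPM in control (SD, n = 5 each; log2 fold change -0.01 ± 0.07, edgeR adjusted p = 0.974). The peak 141 kb from Irx5 (92212100 to 92216980) had -0.27 ± 0.10 and did not pass (edgeR adjusted p = 0.0898). Just outside, the nearest peak on the Irx3 side (91708660 to 91716850, assigned to Gm36325) fell by 0.29 ± 0.07 on the log2 scale (edgeR adjusted p = 0.00968), lost in batch 1 alone (0.157), in batch 2 alone (0.165), without a batch term (0.186) and with the second duplicate only (0.0734). The other 3 flanking peaks of IrxB had -0.26, -0.22 and 0.03 and did not pass. Next to IrxA, the pair of peaks on each side had -0.10, 0.32, 0.08 and 0.01, and none passed.

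Summed per animal, the clusters were compared as a description without a test. The 27 interval peaks outside the one over Irx1 summed to 1125, 1111, 1223, 1283 and 1233 CPM in cKO 1 to 5, against 1300, 1593, 1533, 1580 and 1485 CPM in control 1 to 5. All 5 cKO animals were below all 5 controls, with a mean log2 difference of -0.32, -0.36 in batch 1 and -0.30 in batch 2. This sum includes the 8 peaks called lower. The pair of broad peaks between Irx1 and Irx2 alone averaged 403 and 226 CPM in cKO, against 498 and 295 CPM in control. The separation thus restates those calls in part and does not show that all 27 peaks fell. The 3 gene body peaks of IrxA summed to 2560 ± 154 CPM in cKO and 2587 ± 347 CPM in control (SD, n = 5 each), a log2 difference of -0.01, with -0.12 in batch 1 and 0.07 in batch 2. The 3 gene body peaks of IrxB, Irx5 included, summed to 962 ± 181 CPM in cKO and 883 ± 202 CPM in control, a log2 difference of 0.13.

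**Figure D4:**
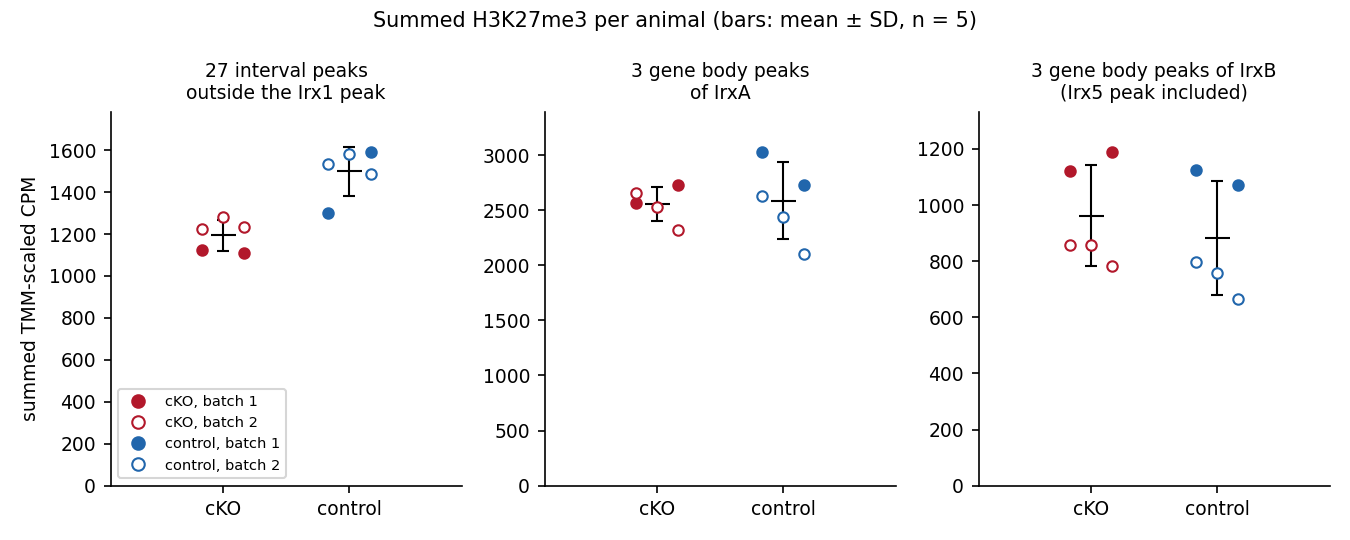
Summed TMM-scaled CPM per animal (y axes, each from 0) over the interval peaks outside the Irx1 peak, the 3 gene body peaks of IrxA and the 3 of IrxB, with cKO left of control, filled points for batch 1, open points for batch 2 and bars for mean ± SD of 5 animals. The genotypes separate in the left panel, whose sum includes the 8 lower peaks, and overlap in the other panels.

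Over its 31 Iroquois peaks IrxA summed to 3777 ± 130 CPM in cKO and 4105 ± 307 CPM in control (SD, n = 5 each, log2 difference -0.12). IrxB summed over its 4 peaks to 650 ± 84.1 CPM in cKO and 616 ± 94.5 CPM in control (0.08). Peaks between the interval and Irx4 that carry other gene names are in neither sum. The log2 ratio of IrxA to IrxB, which does not depend on the scaling of a library, was 2.41, 2.33, 2.66, 2.62 and 2.71 in cKO 1 to 5, against 2.56, 2.67, 2.81, 2.85 and 2.84 in control 1 to 5. Within each batch all cKO animals were below all controls, with a mean difference of -0.25 in batch 1 and -0.17 in batch 2. The IrxA sum includes the interval picked with results known and its 8 lower peaks, whereas IrxB has no such stretch. The lower ratio thus follows in part from the choice of peaks. The ratio of the gene body peaks alone, with the called Irx5 peak in IrxB, was also lower within each batch (mean difference -0.14). With the Irx5 peak added to the 4 IrxB peaks the difference was -0.25. A ratio gives an unequal difference of the clusters, not which of them moved.

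Summed over the peaks that carry a gene's name, 0 of the 6 Iroquois genes were called, against 9.78% of all 11324 genes tested in the same way (8.29% lower and 1.48% higher). The log2 fold changes were -0.07 for Irx1, -0.01 for Irx2, -0.03 for Irx4, 0.04 for Irx3, 0.06 for Irx5 and 0.12 for Irx6, with edgeR adjusted p of 0.190 or more. With peaks assigned instead to RefSeq gene bodies extended by 2.5 kb, Irx5 took the reads of the peak over it and rose (0.22 ± 0.06, edgeR adjusted p = 0.0170, where 1.23% of all genes rose), in place of the 5.57 and 5.16 CPM of its named peaks in cKO and control.

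Genes around the clusters and genes of related roles were read from the same test of sums per gene. Over all 11324 genes tested, 8.29% fell and 1.48% rose. Of 9 tested neighbours of IrxA, 0 passed (5 of 14 had no peak). Of 4 tested neighbours of IrxB, 2 rose, Mmp2, a matrix metalloproteinase gene (44.2 ± 4.09 CPM in cKO and 31.6 ± 10.7 CPM in control, SD, n = 5 each; log2 fold change 0.52 ± 0.12, edgeR adjusted p = 0.00855), and Crnde, whose sum is the peak over Irx5 (0.23 ± 0.06, edgeR adjusted p = 0.0208). For Mmp2 it was 0.12 within batch 1 alone and 0.80 within batch 2 alone, and it passed in each fit that left out 1 animal. Crnde repeats the call of the Irx5 peak and is not a further result. It was lost without cKO 3 (0.0594), cKO 4 (0.0547) or cKO 5 (0.0610).

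Among the other TALE homeobox genes, 1 of 4 tested fell, Meis2 (-0.23 ± 0.06, edgeR adjusted p = 0.0223). Of 12 tested bipolar cell genes 2 fell, Otx2, a homeobox gene of photoreceptors and bipolar cells (-0.33 ± 0.07, adjusted p = 0.00222), and Bhlhe22 (-0.21 ± 0.06, adjusted p = 0.0419). Of 17 tested ganglion cell regulators 2 fell, Atoh7, needed for ganglion cells to form (-0.77 ± 0.09, adjusted p = 2.67e-05), and Satb1 (-0.18 ± 0.05, adjusted p = 0.0418). These shares stand beside 8.29% of all genes. Otx2 and Atoh7 passed in each fit that left out 1 animal. The other 3 were called with all animals but lost in most such fits. Among these fits Meis2 passed only in those without cKO 3 or 4 or control 1 or 5 (adjusted p otherwise up to 0.0795). Bhlhe22 passed only in those without cKO 1 or control 1 or 5 (up to 0.130), and Satb1 in those without control 1 or 5 (up to 0.121).

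Markers of other tissues that a dissected retina could hold gave few values, since a gene without the mark has no peak. Of 10 retina identity genes 6 had no peak, and those with one had a median of 5.15 CPM per kb, against 20.7 for the 6 Iroquois genes by their named peaks and 5.72 for all genes. Lhx2 among them fell (-0.26 ± 0.07, edgeR adjusted p = 0.0203), lost without cKO 1, 2 or 5 or control 2 or 4 (up to 0.0722). Of the pigment epithelium genes 1 was tested and fell, Mitf (-0.19 ± 0.05, edgeR adjusted p = 0.0282). Among the fits that left out 1 animal, Mitf passed only in those without cKO 3 or control 1 or 5 (up to 0.0875 otherwise). The lens genes had no peak, and 1 endothelial, 1 microglial and 1 astrocyte or optic stalk gene were tested, of which 0 passed. The mark does not count cells, and the part of cell composition in the Iroquois values was not tested.

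The genes whose sums followed each cluster most closely across the 10 animals, after centring each batch, were Tbx20 (Pearson r = 0.99), Gm42577 (0.98) and Gm16477 (0.97) for IrxA, and Lypd3 (0.97), Bcan (0.97) and Thy1 (0.95) for IrxB. The points share libraries, depth and genotype.

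An animal held 1688368 (control 2) to 2864080 (control 3) reads in peaks, of which the 35 Iroquois peaks took 0.433% to 0.473%. The labelled sex matched the share of reads in X-linked peaks, 2.41% in cKO 1, 2.51% in control 2 and 1.23% to 1.33% in each male.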

How the data were processed

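The table deposited by the authors holds raw counts per peak, named reads in the text although they may be fragments. The tools named in the submitters' processing notes are MACS2, SAMtools, Novoalign 4.02.02 and DESeq2 1.38.1, and the build is mm10, with their roles unstated. Other deposited columns are, per the file headers, a mean signal, a log2 fold change, a test score, p-values, peak widths and distances to a transcription start. The deposited log2 fold change names no contrast, correlated over 16307 peaks at r = 0.999 with batch 1 minus batch 2 and at 0.347 with cKO minus control, and was not used. The 6 IgG libraries were not analysed here.

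Counts of the 6 pairs of technical duplicates differed by less than sampling noise (chi-square over its degrees of freedom was 0.866 to 0.956, and 1.04 to 2.39 between animals of a group and batch) and were summed, giving 10 animals. filterByExpr removed low counts, leaving 16307 peaks and 11324 gene sums. edgeR 4.0.16 quasi-likelihood tests (R 4.3.3) used TMM factors, batch as a term and Benjamini-Hochberg adjustment over all features, with a threshold of 0.05. CPM were TMM-scaled. The SE was the log2 fold change divided by the square root of F, and 95% intervals used 7 degrees of freedom. The quasi-likelihood tests also borrow spread from other features, so these intervals and the p-values need not match, as at Irx6. In data simulated for cKO against control, 51% of 1.5-fold and 86% of 2-fold changed peaks were recovered with 9 false calls over 16307 peaks, and 64% and 89% with 12 false calls over 11324 genes.

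Members, lists and tests were chosen with earlier results of these data known. Values are given for every called Iroquois peak and, per gene, the peak with most reads. From each list up to 3 called genes are named. Peaks outside these named with values were chosen after their values were seen. Alternatives were total-count scaling, DESeq2 1.42.0, no filter, no batch term, a replicate block, sex, each batch, each duplicate, other thresholds, RefSeq gene bodies, the peak with most reads per gene, and leaving out each animal. Replicates are separate animals. Intervals and tests cover these animals only.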

Additional observations from a re-analysis of the deposited data

Results flagged for a closer look

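Of 48 groups of 5 animals examined at the named Iroquois peaks and genes, 4 held an animal apart from the others, where about 1 in 20 is expected by chance. The measure is the gap of the outermost animal to its neighbour over the range of the group, with a critical value of 0.710 for 5 animals. Control 1 lay below the other controls at the peak 62.9 kb from Irx1 (0.882) and at the peak assigned to Gm47836 (0.807), nearest to the cKO animals in both. cKO 1 lay below the other cKO animals at the same peak near Irx1 (0.712). cKO 3 lay above the other cKO animals at the Gm38191 peak at 71054890 to 71056440 (0.778), where 164 reads were counted over all animals. Control 1 is the control with Cre and a floxed allele, and the part of its genotype in these values was not tested.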

How the results depend on the processing

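Of 28 tested Iroquois peaks, 8 were lower and 0 higher in cKO. The lower count was 4 with DESeq2, 3 without a batch term, 0 in batch 1 alone, 4 with the first duplicate only, 4 at an adjusted p under 0.01, and 5 to 9 when 1 animal was left out (5 without control 4). The higher count was 1 under total-count scaling (7 lower then) and 1 with every peak of the IrxB interval. Iroquois genes called higher numbered 1 under total-count scaling (Irx6) and 1 with RefSeq gene bodies (Irx5). Replicate numbers did not pair the animals (correlations of deviations -0.44 for the numbers of batch 1 and 0.0916, 0.0130 and 0.0325 in batch 2), and with a replicate block 8 peaks were lower and 0 higher.

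Log2 values near 0 changed sign. The Irx1 peak had 0.0262 by total count, 0.0519 in batch 2 alone, 0.0121 with the first duplicate and -0.101 to 0.0202 without 1 animal. The Irx2 peak had -0.0141 with DESeq2, -0.00541 with no filter, -0.0034 without a batch term, -0.0978 in batch 1 alone, -0.0269 with the first duplicate and -0.081 to 0.047 without 1 animal. The Irx4 peak had 0.034 by total count, 0.0535 in batch 2 alone and -0.0709 to 0.0225 without 1 animal, and the Irx3 peak -0.0113 in batch 1 alone and -0.00479 to 0.0945 without 1 animal. Of the gene sums, Irx2 had 0.0539 by total count, 0.0587 in batch 2 alone, 0.0308 with the second duplicate and -0.0678 to 0.0406 without 1 animal. Irx4 had 0.0334 by total count, 0.0521 in batch 2 alone and -0.0657 to 0.0126, Irx3 -0.0189 in batch 1 alone, and Irx5 -0.0767 in batch 2 alone and -0.0511 to 0.118. The IrxA difference was -0.20 in batch 1 alone and -0.00685 over gene body peaks, and the IrxA to IrxB ratio -0.141 over gene body peaks and -0.251 with the Irx5 peak. The cause of these shifts was not tested. The part of depth in the calls was not tested.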
